A study of Mus musculus with 4 samples.

Results

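Solute carriers are membrane proteins that move sugars, amino acids, organic ions, metals, vitamins and metabolites across cell and organelle membranes. Here they were followed in mouse liver through 140 array probes, out of 20868 non-control probes, whose description in the scanner files names a solute carrier family. The wording was found in 146 probes, and 6 of them were set aside by symbol (Slc10a1, Slco1a1, Slco1b2, Slc27a5, Slc2a2 and Slc40a1). Slc25a1 and Slc37a4 were also to be set aside, and no probe with the wording carried those symbols. A symbol could be given to 118 of the 140 probes, covering 117 genes, and the other 22 are named only by the family and member in their description.

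The study fed male mice of a polygenic obese line for 14 days with conjugated linoleic acid (CLA) as its trans-10, cis-12 form, at 1% of the diet, or with linoleic acid at 1% as the control. The diets thus differed in the fatty acid isomer, and all animals were obese males of the same line. Liver RNA was pooled from 4 or 5 mice for each labelling, and 4 two-colour Agilent arrays each set a CLA pool against a control pool. Arrays 1 and 2 carried the CLA pool in Cy5 (red) and arrays 3 and 4 carried it in Cy3 (green). The labels give no age and no pool numbers, so arrays may share pools, and p-values cover the spread between arrays alone, part of which may be technical.

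Hepatocytes take up bile acids, drugs, amino acids and glucose from the portal blood through carriers of their sinusoidal membrane. Inside the cell, family 25 carriers pass metabolites, among them acylcarnitines bound for oxidation, across the inner mitochondrial membrane. Family 27 proteins take up long-chain fatty acids and join them to coenzyme A.

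For 3 members that the results turn on, the 250 bases before the gene start are shown so that the letters at their start can be read beside the values. They are Slc19a2, a thiamine transporter and the member with the smallest p, Slc25a20, the mitochondrial carnitine/acylcarnitine carrier, and Slc27a2, a very-long-chain acyl-CoA synthetase and fatty acid transport protein. The sequences are those of RefSeq for GRCm38.p6, all on the plus strand, at chr1:164248796-164249045, chr9:108661886-108662135 and chr2:126552774-126553023 in that order. Capitals mark the GC box GGGCGG, the CCAAT box CCAAT and the nuclear receptor element AGGTCA on either strand.
Slc19a2: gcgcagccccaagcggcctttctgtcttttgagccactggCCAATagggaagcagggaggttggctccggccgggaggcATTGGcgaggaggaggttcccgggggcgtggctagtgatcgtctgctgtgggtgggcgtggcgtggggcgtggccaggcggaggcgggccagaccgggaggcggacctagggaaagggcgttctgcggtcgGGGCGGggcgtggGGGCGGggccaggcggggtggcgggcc
Slc25a20: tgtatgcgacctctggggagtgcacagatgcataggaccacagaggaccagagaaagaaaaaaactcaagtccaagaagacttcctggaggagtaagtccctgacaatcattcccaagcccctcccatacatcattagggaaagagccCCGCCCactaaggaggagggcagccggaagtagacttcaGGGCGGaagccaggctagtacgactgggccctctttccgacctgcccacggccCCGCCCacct
Slc27a2: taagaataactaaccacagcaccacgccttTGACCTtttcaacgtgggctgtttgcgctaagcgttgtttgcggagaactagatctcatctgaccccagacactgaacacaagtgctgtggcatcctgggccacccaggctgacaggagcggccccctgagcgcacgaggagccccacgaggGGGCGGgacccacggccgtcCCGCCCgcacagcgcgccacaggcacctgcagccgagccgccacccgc
The Slc19a2 window held 2 GC boxes and 2 CCAAT boxes, the Slc25a20 window 3 GC boxes, and the Slc27a2 window 2 GC boxes and 1 AGGTCA. None of the 3 held AGGTCANAGGTCA, a direct repeat of that element, which 0.0335% of all 32851 windows of that length contained. The GC box was in 32.7% of all windows, CCAAT in 33.8% and AGGTCA in 14.0%. Of the 123 windows of the 91 member genes with an entry, 59 held the GC box, 35 CCAAT and 16 AGGTCA. A match describes letters and does not show that a factor binds there.

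Values on each array are log2 ratios of CLA over control as measured, with any bias between the dyes still in them. The diet effect is the mean of the average of arrays 1 and 2 and the average of arrays 3 and 4, which cancels a dye bias of equal size in both orientations (limma, with a dye term for each probe). The dye bias was not of equal size. Its slope on the mean dye profile was 0.779 and 0.734 on arrays 1 and 2 and 1.18 and 1.30 on arrays 3 and 4, and a diet effect after the bias was made equal in size on all arrays is given beside the main one. Of the non-control probes, 80.2% to 95.5% in the CLA channels and 85.5% to 95.7% in the control channels had a spot well above background. The number of arrays limits the precision. The hepatocyte markers Ttr and Apoa1 were well above background in both diets on all 4 arrays, and the other 3 hepatocyte markers listed had no tested probe under their symbol. Markers of the exocrine pancreas stood high on array 4. The 5 of 7 with a tested probe had a median log2 ratio of 1.36 there, with Prss2 at 2.60 and Cela2a at 2.41, against 0.03 to 0.08 on arrays 1 to 3. The part of such RNA in the results below was not tested, and values without array 4 are given for some of the members with larger effects. In bulk liver RNA, fewer cells of a type and less RNA per cell cannot be told apart.

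No solute carrier probe passed the test across all genes. Of the 140, 136 were tested, because their signal was well above background on 2 or more arrays in either diet, and 133 of these were measured on all 4. The count at a limma adjusted p under 0.05 was 0 of 136, against 14 of 20214 probes over the whole array (0.0693%). The smallest adjusted p of a solute carrier was 0.107. At an unadjusted limma p under 0.05, 24 of 136 were higher with CLA (17.6%, against 8.76% of all probes) and 8 were lower (5.88%, against 7.17%).

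Fewer solute carriers were on the higher side with equal dye size or with median centring. With the dye bias made equal in size, 14 were higher (10.3%, against 4.69% of all probes) and 8 lower (5.88%, against 4.76%), and 0 passed an adjusted limma p under 0.05 (0% of all probes too). Of the 32 past the unadjusted threshold in the main fit, 17 were also past it in that reading with the same sign. With median centring in place of loess, 6 were higher (4.41%, against 8.25% of all probes) and 11 lower, against 10.6% of all probes. Without any test, 74 of 136 probes lay above 0 (54.4%, against 52.3% of all probes), and 72 did with equal dye size (52.9%, against 50.4%). The median diet effect of the family was 0.019 on the log2 scale, against 0.0060 over all probes.

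Effects were small. They ran between -0.34 and 0.52 on the log2 scale, and 115 of 136 were under 0.2 in size, with standard errors of 0.057 to 0.15. Diet and dye effects of the tested solute carriers had r = -0.58 (136 probes that share the same 4 arrays), against -0.53 over all 20214 probes. Of the 24 on the higher side at an unadjusted p under 0.05, 12 lay below 0 on both arrays with CLA in Cy5, and 8 lay above 0 on all 4 arrays. Of the 8 on the lower side, 3 lay below 0 on all 4.

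**Figure D1:**
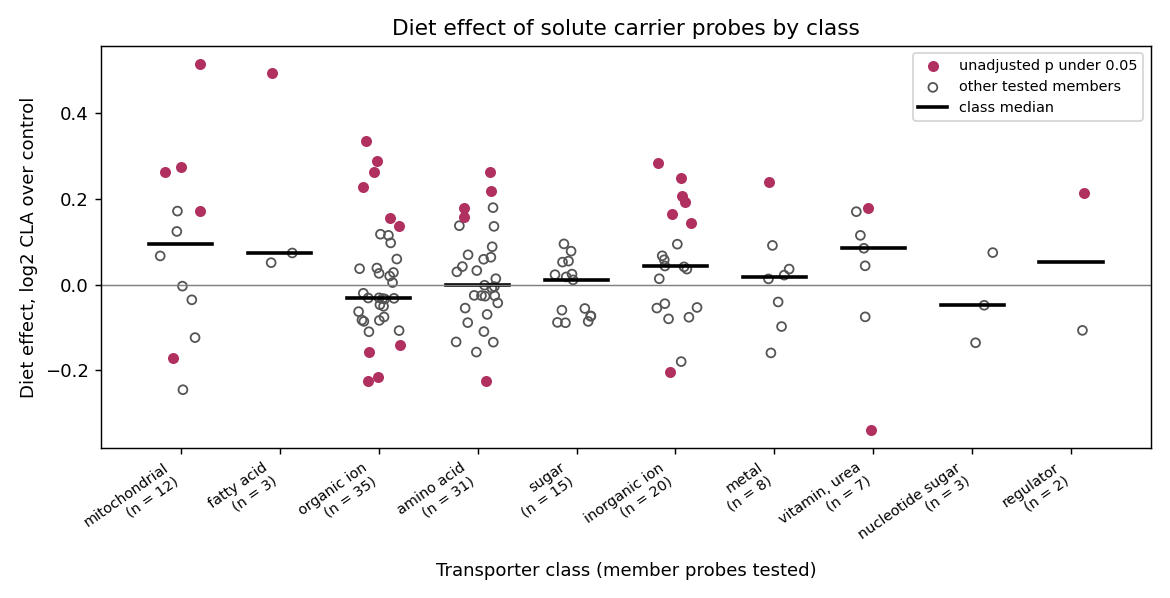
Diet effect (log2 CLA over control, main fit) of each of the 136 tested solute carrier probes, by transporter class, with the number tested under each class. Filled points had an unadjusted limma p under 0.05 and bars mark class medians, which all lay between -0.05 and 0.10.

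Mitochondrial carriers had 4 of 12 probes higher and 1 lower at an unadjusted p under 0.05, against 8.76% and 7.17% of all probes. Above 0 lay 7, and the median diet effect was 0.10 (0.036 with equal dye size and -0.037 with median centring). Slc25a20 is the carrier through which acylcarnitines enter the matrix for oxidation. It stood at -0.04, -0.04, 0.53 and 0.65 (log2 CLA over control) on arrays 1 to 4. Both arrays with CLA in Cy3 were high, and both with CLA in Cy5 were close to 0. Its diet effect was 0.27 ± 0.06 (SE over 4 arrays, limma adjusted p = 0.128), or 1.21-fold. With equal dye size it was 0.20 ± 0.06 (adjusted p = 0.502), without array 4 it was 0.24, and with median centring it was 0.12 (limma adjusted p = 0.550).

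Slc25a10, the dicarboxylate carrier that exchanges malate and succinate for phosphate, stood at 0.14, 0.14, 0.29 and 0.11 on the 4 arrays. All 4 were above 0, with array 3 the highest. The diet effect was 0.17 ± 0.06 (limma adjusted p = 0.246), and 0.16 with equal dye size, but it lay at -0.00054 with median centring. Slc25a18, a glutamate carrier, stood at 0.06, -0.20, -0.31 and -0.23. Only array 1 was above 0, and the diet effect was -0.17 ± 0.07 (limma adjusted p = 0.278). Its CLA channel was well above background on only 2 arrays.

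A probe described as family 25 member 19, which the file calls a deoxynucleotide carrier and which is now known as the thiamine pyrophosphate carrier, stood at -0.32, -0.15, 0.93 and 0.60. The 2 dye orientations lay on opposite sides of 0. Its diet effect of 0.26 ± 0.07 (limma adjusted p = 0.181) was 0.14 with equal dye size and 0.35 without array 4.

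The largest diet effect of the family, 0.52 ± 0.12 (limma adjusted p = 0.141), belonged to a probe described as a calcium-binding mitochondrial carrier of family 25 with no member number. It stood at -2.27, -1.90, 2.75 and 3.48 on arrays 1 to 4, so that its sign followed the dye on every array. Its dye effect was -2.60, and with equal dye size the diet effect was -0.12 ± 0.08. Without array 4 it was 0.33, and without array 3 it was 0.70.

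The other mitochondrial carriers held no value past an unadjusted limma p of 0.05 in the main fit. Slc25a3, the phosphate carrier, stood at 0.17 ± 0.08, and 0.07 without array 4. Slc25a15, the ornithine carrier of the urea cycle, stood at 0.12 ± 0.06. The aspartate-glutamate carriers, described as family 25 members 12 and 13, stood at -0.12 ± 0.06 and -0.035 ± 0.06. With median centring they stood at -0.16 and -0.25 (limma adjusted p = 0.385 and 0.217), and member 13 was past the unadjusted threshold. Slc25a17, a carrier of the peroxisomal membrane named after its values were seen, had the largest standard error of the whole family and stood at 0.83, -0.06, -1.21 and -0.54 on the 4 arrays. Its diet effect was -0.25 ± 0.15. It was -0.47, -0.021, -0.08 and -0.41 without arrays 1, 2, 3 and 4 in turn, and -0.09 with equal dye size.

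The 3 fatty acid transport proteins all lay above 0 in the main fit, with a median diet effect of 0.07. The median was 0.12 with equal dye size and 0.17 with median centring, where Slc27a1 lay below 0 at -0.09. Slc27a2 was measured on arrays 1, 3 and 4, where it stood at -0.23, 0.87 and 1.56. The arrays with CLA in Cy3 were far above the array with CLA in Cy5, and array 4 was the highest. The diet effect was 0.49 ± 0.14 (limma adjusted p = 0.184), or 1.41-fold, from 3 arrays. It was 0.33 with equal dye size, 0.29 with median centring, 0.32 without array 4 and 0.67 without array 3. Slc27a1, also lacking array 2, stood at 0.07 ± 0.07, and the probe described as family 27 member 4 at 0.05 ± 0.06.

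**Figure D2:**
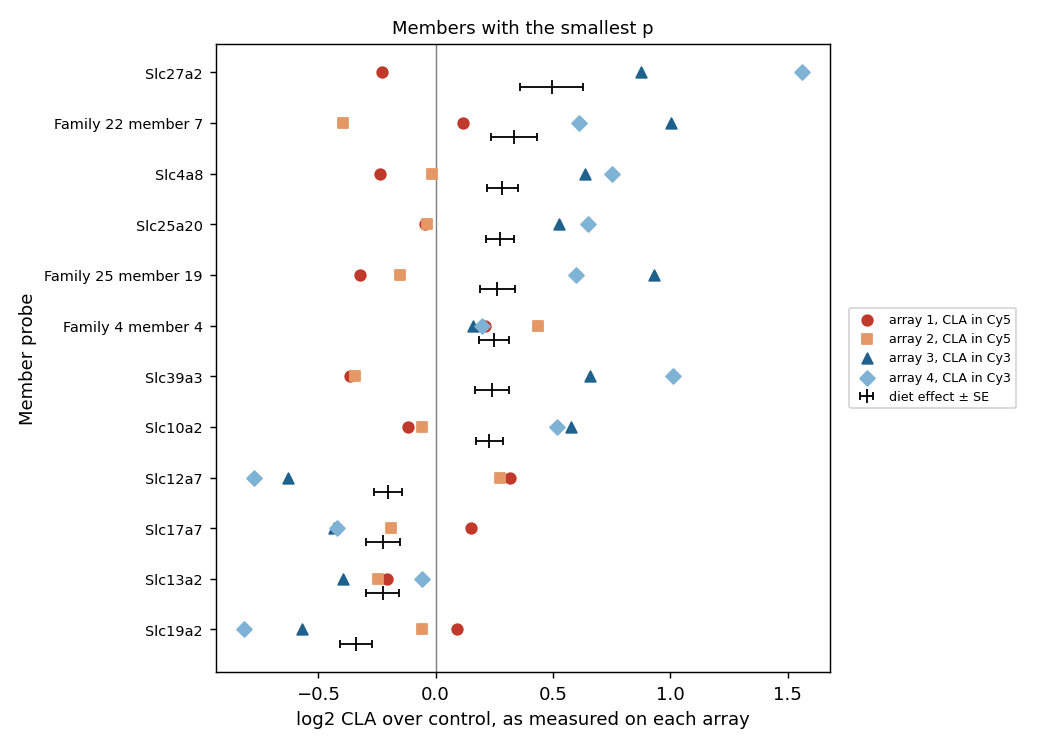
Log2 ratio of CLA over control as measured on each array (coloured symbols) and diet effect with its SE (black) for 12 solute carrier probes among the 15 with the smallest p. The calcium-binding carrier probe of family 25 is left out because its values reach 3.48, and Slc27a2 has no value on array 2. Both arrays with CLA in Cy3 lie above 0 and both with CLA in Cy5 below it for Slc4a8, Slc25a20, Slc10a2 and Slc39a3. The same holds for the family 25 member 19 probe, and Slc12a7 has the opposite layout.

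Transporters of organic anions and cations, bile acids, monocarboxylates and nucleosides were the largest class, with 37 probes and 35 tested. At an unadjusted p under 0.05, 6 of 35 were higher and 4 lower, against 8.76% and 7.17% of all probes. Above 0 lay 16, and the median diet effect was -0.031 (0.048 with median centring). Slc10a2, the sodium-dependent bile acid transporter known from ileum and bile ducts, stood at -0.12, -0.06, 0.58 and 0.52. Arrays 3 and 4 were high and arrays 1 and 2 just below 0, with a diet effect of 0.23 ± 0.06 (limma adjusted p = 0.158), 0.15 with equal dye size, 0.24 without array 4 and 0.10 with median centring. The probe described as family 22 member 7, an organic anion transporter, stood at 0.12, -0.39, 1.00 and 0.61, with array 2 alone below 0. Its diet effect of 0.33 ± 0.10 (limma adjusted p = 0.193) was 0.22 with equal dye size and 0.16 with median centring. It was 0.21, 0.46, 0.24 and 0.43 without arrays 1, 2, 3 and 4 in turn.

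Slco1a6, an organic anion transporting polypeptide, was above 0 on every array, at 0.05, 0.28, 0.16 and 0.13. It was dim, well above background on only 2 arrays in each diet. The diet effect was 0.16 ± 0.06 (limma adjusted p = 0.293) and 0.10 without array 2. It was 0.32 with median centring and 0.59 with the scanner's processed signals. Slc22a3, an organic cation transporter, named after its values were seen, stood at 0.03, 0.07, 0.29 and 0.16, with a diet effect of 0.14 ± 0.06 (limma adjusted p = 0.313).

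Slc13a2, a sodium-coupled transporter of citrate and other dicarboxylates known from kidney, lay below 0 on every array. It stood at -0.21, -0.24, -0.39 and -0.06, with a diet effect of -0.23 ± 0.07 (limma adjusted p = 0.210) in the main fit and with equal dye size. The size depended on background correction, at -0.04 with no background subtraction and -0.50 with the scanner's processed signals. Without array 3 it was -0.14. Slco1a5, chosen after its values were seen, stood at -0.04, -0.23, -0.28 and -0.08, below 0 throughout, with a diet effect of -0.16 ± 0.07 (limma adjusted p = 0.304). Slc18a3, the vesicular acetylcholine transporter, also named after its values were seen, stood at -0.07, -0.62, -0.02 and -0.15, with array 2 far below the others. Slc22a18 stood at -0.14 ± 0.06 (limma adjusted p = 0.307), at -0.08 with equal dye size and at -0.34 with median centring (limma adjusted p = 0.117).

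Other carriers of this class that liver uses were closer to 0 in the main fit. Slc22a5, the carnitine transporter of the plasma membrane, stood at 0.04 ± 0.06, Slc16a1, a lactate and ketone body transporter, at -0.11 ± 0.09, and Slc13a3, a dicarboxylate transporter, at 0.12 ± 0.06. The nucleoside transporters Slc29a1 and Slc28a2 stood at -0.11 ± 0.06 and -0.03 ± 0.06. With median centring Slc16a1 stood at -0.30 and Slc29a1 at -0.33, both past the unadjusted threshold (limma adjusted p = 0.129 and 0.132), and Slc28a2 at 0.10. The 2 probes of Slco3a1 stood at 0.03 and 0.02. Slc26a6 and Slc13a1 were not well above background in the CLA channel on any array and were so in the control channel on 2 arrays, and no fold is given for them.

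**Figure D3:**
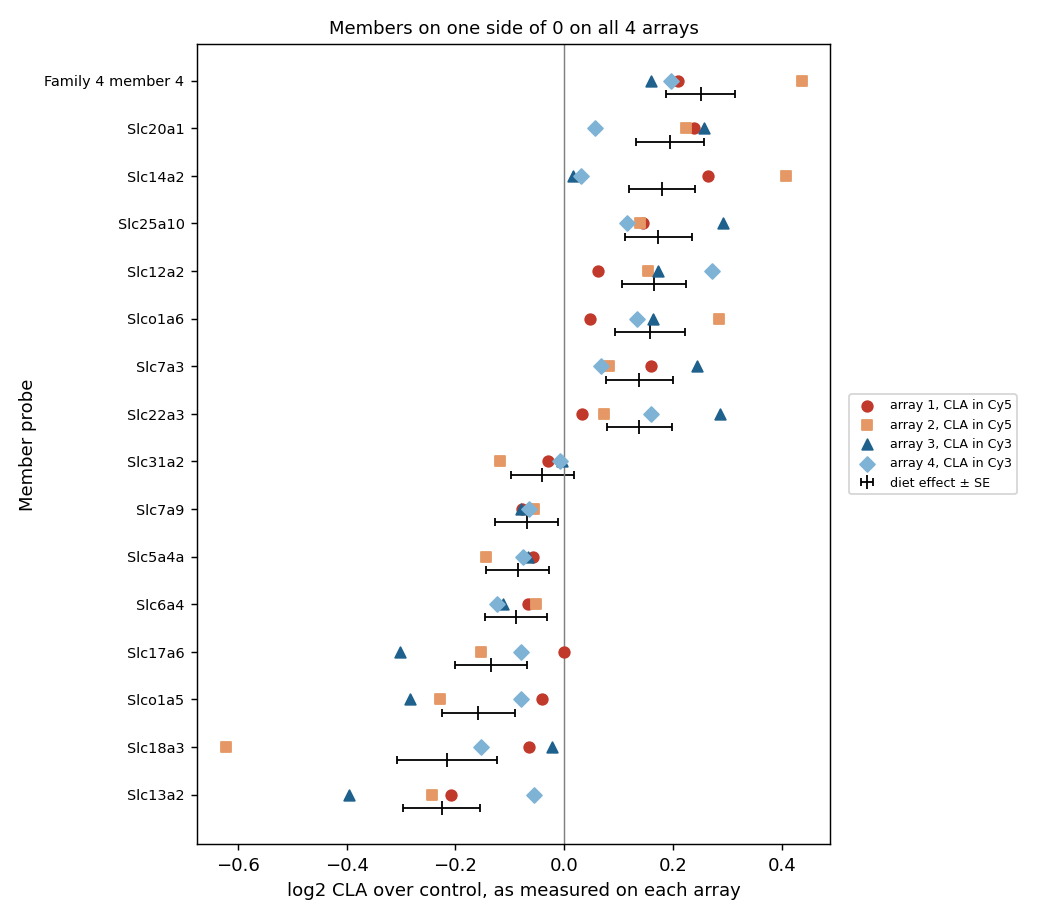
Solute carrier probes whose measured log2 ratio of CLA over control was above 0 on all 4 arrays (8 of 9 shown, upper rows) or below 0 on all 4 (8, lower rows). Symbols are single arrays and black bars the diet effect ± SE, which ran between -0.23 and 0.25.

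Of the 133 probes measured on all 4 arrays, 9 lay above 0 on every array (6.77%, against 4.61% of all probes) and 8 lay below (6.02%, against 4.72%). These are ratios as measured, with no dye term. Among those above 0 were a probe described as similar to human SLC4A4, Slc20a1, Slc14a2, Slc25a10, Slc12a2, Slco1a6, Slc7a3 and Slc22a3. Below 0 were Slc13a2, Slc18a3, Slco1a5, Slc17a6, Slc6a4, Slc5a4a, Slc7a9 and Slc31a2, of which Slc17a6 (-0.0012 on array 1) and Slc31a2 (-0.0052 on array 3) were almost at 0 on 1 array.

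Among 20 tested transporters of inorganic ions and pH, 6 were higher and 1 lower at an unadjusted p under 0.05 (8.76% and 7.17% of all probes). Above 0 lay 13, and the median diet effect was 0.043 (0.0100 with equal dye size). The probe similar to SLC4A4, the sodium bicarbonate cotransporter, stood at 0.21, 0.44, 0.16 and 0.20. Array 2 was the highest and none was near 0. Its diet effect was 0.25 ± 0.06 (limma adjusted p = 0.160), 0.27 with equal dye size and 0.06 with median centring. The probe named Slc4a4 itself stood at -0.30, 0.05, 0.52 and 0.12, with a diet effect of 0.09 ± 0.09. Both probes lay above 0 and they differed on array 1.

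Slc4a8, a sodium-driven bicarbonate exchanger, stood at -0.24, -0.01, 0.64 and 0.75, with a diet effect of 0.28 ± 0.07 (limma adjusted p = 0.142), 0.19 with equal dye size, 0.26 without array 4 and 0.18 with median centring. Slc20a1, a phosphate transporter, stood at 0.24, 0.22, 0.26 and 0.06. All 4 arrays lay above 0 and array 4 was the lowest. The diet effect was 0.19 ± 0.06 (limma adjusted p = 0.215), 0.20 with equal dye size and 0.11 with median centring. Slc12a2, the sodium-potassium-chloride cotransporter NKCC1, stood at 0.06, 0.15, 0.17 and 0.27, with a diet effect of 0.16 ± 0.06 (limma adjusted p = 0.250).

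Slc12a7, a potassium-chloride cotransporter, stood at 0.32, 0.28, -0.63 and -0.77, so that the arrays lay on opposite sides of 0 by dye. This gave a diet effect of -0.20 ± 0.06 (limma adjusted p = 0.193), -0.08 with equal dye size and -0.36 with median centring. Slc4a2, the anion exchanger AE2, known at the bile canaliculus, stood at -0.28, -0.35, 0.60 and 0.87. Its diet effect of 0.21 ± 0.07 (limma adjusted p = 0.220) was 0.08 with equal dye size, 0.14 without array 4 and 0.06 with median centring. For Slc12a3, the thiazide-sensitive cotransporter of kidney, named after its values were seen, the diet effect was 0.14 ± 0.06 in the main fit (limma adjusted p = 0.309) and -0.21 ± 0.07 with equal dye size (limma adjusted p = 0.526), past the unadjusted threshold in opposite directions. It stood at -1.39, -1.23, 1.64 and 1.55 on the arrays, with a dye effect of -1.45.

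**Figure D4:**
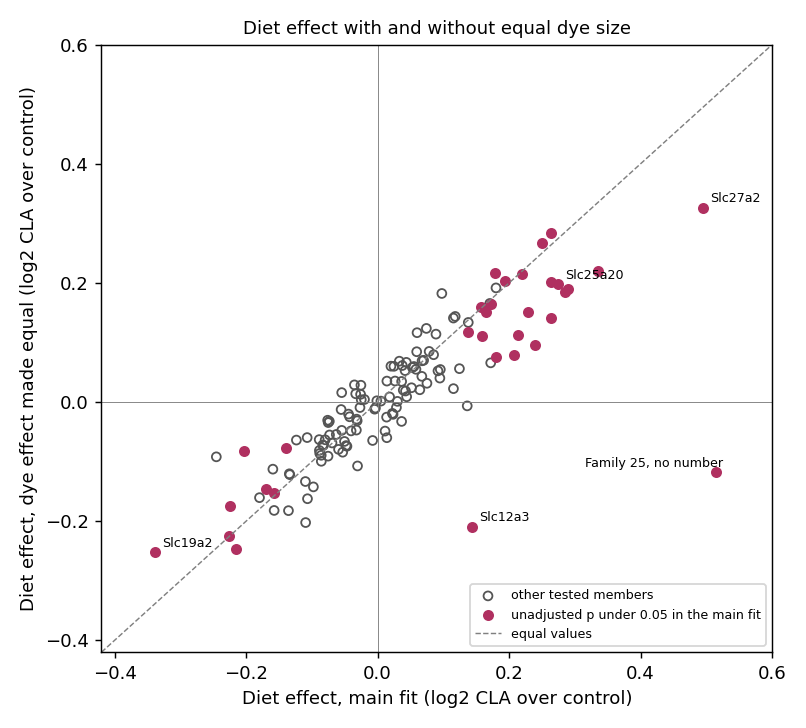
Diet effect of the 136 tested solute carrier probes with the dye effect made equal in size on all arrays (vertical axis) against the main fit (horizontal axis), both log2 CLA over control. Filled points had an unadjusted p under 0.05 in the main fit. Slc12a3 and the family 25 probe with no member number lie below 0 on the vertical axis and above 0 on the horizontal one.

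Amino acid and neurotransmitter transporters had 31 probes tested, 4 of them higher and 1 lower at an unadjusted p under 0.05 (8.76% and 7.17% of all probes). Above 0 lay 15, and the median diet effect was -0.0012. Slc7a2, the cationic amino acid transporter through which liver takes up arginine, stood at 0.07, -0.06, 0.23 and 0.81. Array 4 was far above the others. This gave a diet effect of 0.26 ± 0.09 (limma adjusted p = 0.246), 0.12 without array 4, 0.41 without array 3 and 0.13 with median centring. Slc38a4, a sodium-coupled neutral amino acid transporter abundant in liver, stood at -0.37, -0.12, 0.49 and 0.73, with a diet effect of 0.18 ± 0.07 (limma adjusted p = 0.285), 0.08 with equal dye size and -0.0038 with median centring.

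Slc38a3, the glutamine transporter of perivenous hepatocytes, was measured on arrays 1, 3 and 4 at -0.51, 0.23 and 0.35. Its diet effect from those 3 arrays was -0.11 ± 0.08, -0.20 ± 0.07 with equal dye size and -0.30 with median centring. The probe described as family 6 member 13, a GABA transporter that liver expresses, stood at -0.33, -0.57, 0.60 and 0.85, opposite by dye, with a diet effect of 0.14 ± 0.07 and near 0 with equal dye size.

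Slc1a6, a glutamate transporter known from cerebellum, stood at -0.04, -0.03, 0.39 and 0.32, with a diet effect of 0.16 ± 0.06 (limma adjusted p = 0.252) and 0.10 with median centring. Slc6a2, the noradrenaline transporter, was well above background in the CLA channel on 3 arrays and in the control channel on none. It is among the probes counted as higher but passed the filter through the CLA channel alone, so no p-value is given for it. The probe stood at -0.04, 0.44, 0.32 and 0.15, with a fitted diet effect of 0.22, and 0.10 without array 2. The CLA mean was 1.10-fold the lowest signal well above background or the control probe's own, whichever was higher. Slc7a3, a cationic amino acid transporter, lay above 0 throughout at 0.16, 0.08, 0.24 and 0.07, with a diet effect of 0.14 ± 0.06 (limma adjusted p = 0.325).

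Slc17a7, a vesicular glutamate transporter, stood at 0.15, -0.19, -0.43 and -0.42, with array 1 alone above 0. Its diet effect was -0.22 ± 0.07 (limma adjusted p = 0.213), -0.17 with equal dye size, -0.14 without array 2 and -0.09 with median centring. Slc17a6, its paralog, chosen after its values were seen, stood at -0.13 ± 0.07. The subunits and partners of the heteromeric carriers lay near 0 in the main fit, with Slc3a2 at -0.055 ± 0.06, Slc7a5 at 0.07 ± 0.06, Slc7a7 at -0.025 ± 0.06, Slc7a8 at 0.014 ± 0.06 and Slc3a1 at 0.030 ± 0.07. With median centring Slc3a2 stood at -0.23, past the unadjusted threshold (limma adjusted p = 0.236). Slc7a1, the other arginine transporter named here, stood at -0.026 ± 0.06 and Slc1a2 at -0.13 ± 0.09. Slc7a11, the cystine-glutamate exchanger, stood at -0.02, 0.34, -0.05 and -0.04, with array 2 alone above 0. It was well above background on 2 arrays in the CLA channel and on 1 in the control channel.

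Of 7 transporters of thiamine, folate, ascorbate and urea, 1 was higher and 1 lower at an unadjusted p under 0.05 (8.76% and 7.17% of all probes). Above 0 lay 5. Slc19a2, the thiamine transporter, had the smallest p of all solute carriers. It stood at 0.09, -0.06, -0.57 and -0.82 on arrays 1 to 4. Both arrays with CLA in Cy3 were low and both with CLA in Cy5 near 0, the mirror of the Slc25a20 layout. The diet effect was -0.34 ± 0.07 (limma adjusted p = 0.107), -0.25 ± 0.06 with equal dye size and -0.28 without array 4. With median centring it was -0.53 (limma adjusted p = 0.013). It was the only 1 of 136 solute carriers to pass there, against 149 of 20214 probes over the whole array.

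Slc14a2, a urea transporter, stood at 0.26, 0.41, 0.016 and 0.031, all above 0, with arrays 1 and 2 the higher. That gave a diet effect of 0.18 ± 0.06 (limma adjusted p = 0.228), 0.22 with equal dye size and 0.00027 with median centring. Its paralog Slc14a1 stood at 0.12 ± 0.08, and the folate carrier Slc19a1 at 0.17 ± 0.08. Slc19a3, a thiamine transporter too, stood at -0.08 ± 0.07. The ascorbate transporters Slc23a1 and Slc23a2 stood at 0.04 ± 0.06 and 0.09 ± 0.07.

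The 15 sugar transporters and family 5 cotransporters held no probe past an unadjusted p of 0.05 (8.76% of all probes higher and 7.17% lower). Above 0 lay 8 (median diet effect 0.011). They ran between -0.09 and 0.10. Slc2a5, a fructose transporter, stood at -0.07 ± 0.06, Slc2a3 at -0.09 ± 0.07, the insulin-responsive glucose transporter Slc2a4 at 0.02 ± 0.06, and the probe described as family 2 member 9, a urate transporter, at -0.07 ± 0.07. Slc5a7, a choline transporter of the same family number, stood at 0.10 ± 0.08. Slc5a4a lay below 0 on all 4 arrays at -0.06, -0.14, -0.07 and -0.08. The probe named Slc5a1 stood at 0.018 and the probe described as family 5 member 1 at -0.06, so the pair differed in sign.

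Of 8 metal transporters, 1 was higher at an unadjusted p under 0.05, against 8.76% of all probes. That was Slc39a3, a zinc importer, at -0.37, -0.34, 0.66 and 1.01, opposite by dye, with a diet effect of 0.24 ± 0.07 (limma adjusted p = 0.197), 0.10 with equal dye size and 0.15 without array 4. The zinc exporters Slc30a1 and Slc30a4 stood at 0.09 ± 0.10 and -0.16 ± 0.08, and at -0.041 and -0.27 with median centring. Slc11a2, which carries iron, stood at 0.04 ± 0.08. Slc11a1, the phagosomal metal transporter of macrophages, stood at -0.10 and a probe described as family 11 member 1 at 0.022, and this pair too differed in sign.

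Of the 3 nucleotide sugar transporters, Slc35a1, which carries CMP-sialic acid into the Golgi, stood at -0.14 ± 0.06 and at -0.18 ± 0.06 with equal dye size (limma adjusted p = 0.526). Slc35a2, for UDP-galactose, stood at 0.08 ± 0.06 and a probe described as family 35 member 3 at -0.05 ± 0.08. Slc9a3r2 and Slc9a3r1 are scaffold proteins that bind the sodium-hydrogen exchanger and carry its family in their description. Slc9a3r2 stood at 0.21 ± 0.07 (limma adjusted p = 0.243), 0.11 with equal dye size, 0.115 without array 4 and 0.09 with median centring. Slc9a3r1 stood at -0.11 ± 0.06, -0.16 with equal dye size and -0.29 with median centring. Slc12a1, Slc15a2 and the probes described as family 28 member 3 and family 1 member 3 were not tested because their signal was too dim.

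The authors' deposited table of significant genes lists 5 of the 140 probes among its 775. Its ratio ran as CLA over control, in the direction of the diet effect from the scanner's processed signals for 97.4% of 765 probes. In the authors' deposited table Slc17a7 had a ratio of 0.459, Slc25a18 of 0.466 and Slc22a2 of 0.650, while Slc7a10 had 1.45. From the processed signals the log2 diet effects of these 4 were -0.67, -0.59, -0.04 and 0.26 in that order. In the main fit they were -0.22, -0.17, -0.033 and 0.09, and none passed an adjusted limma p under 0.05. Slc22a2, an organic cation transporter, and Slc7a10, a neutral amino acid transporter, are named because that table holds them.

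Genes that work beside these carriers were counted from lists. Over all probes, 8.76% were higher and 7.17% lower at an unadjusted limma p under 0.05 in the main fit. Of 7 tested partners and drivers of transport, such as sodium pump and scaffold subunits, 0 were past an unadjusted limma p of 0.05 in either direction, and 3 lay above 0. Among 19 probes of mitochondrial and water channels and related carriers, 4 of which are solute carrier probes counted above, 1 was higher and 1 lower at that threshold. Aqp9, the glycerol channel of hepatocytes, stood at -0.41, -0.21, 0.83 and 0.67, with a diet effect of 0.22 ± 0.07 (limma adjusted p = 0.195), and 0.09 with equal dye size, no longer past the unadjusted threshold. Vdac2, a pore of the outer mitochondrial membrane, stood at -0.20 ± 0.06 (limma adjusted p = 0.208). Of 6 tested genes of the amino acid response, Ddit3, a stress transcription factor, alone was past the unadjusted threshold, at 0.20 ± 0.08 (limma adjusted p = 0.274). With equal dye size Ddit3 stood at 0.08, and Chac1, an enzyme that degrades glutathione named after its values were seen, was the member past it at 0.17, against 0.14 in the main fit. Atf4, the main transcription factor of that response, stood at -0.0083 ± 0.06.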

How the data were processed

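The deposited scanner files, per the file headers made by Agilent Feature Extraction A.6.1.1, hold foreground and background intensity in both channels of 22393 spots, of which 1075 are controls, with processed intensities and their log10 ratio of Cy5 over Cy3. In the deposited series matrix each spot has a log10 ratio, whose slope on the scanner's ratio was 1.00 on arrays 1 and 2 but -1.00 on arrays 3 and 4, which makes it CLA over control throughout. The medians of its 4 columns were 0.0010, -0.0023, -0.0020 and -0.0011. For 775 probes the authors' deposited table has a ratio, its p-value and a score, the fold change with a sign. Its test and a genome build are not given in the sources used here.

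Background correction of the mean foreground used normexp (offset 50) on the median background, followed by loess with control spots at weight 0. Outlier spots were left out and spots of a probe averaged. The 20214 probes with signal well above background on 2 or more arrays in either diet, and measured on 3 or more, were tested in limma 3.58.1 (R 4.3.3) on log2 ratios, with an intercept for the dye, Benjamini-Hochberg adjustment over all probes and a threshold of 0.05. The fit was run on simulated data with planted effects larger than any solute carrier effect found here, so that run does not bear on effects of this size. The scale between arrays, the background correction, the dye term, the filter and each array were varied.

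Names came from RefSeq accessions (111 probes), the description (5) or the authors' table (2). Classes follow the family number, so that a few carriers sit with the substrates of their relatives. The members, lists and classes were chosen with earlier results of these data known. The rule named up to 6 members by p in each class, a set of liver carriers, bounded members and probes of a gene that differ in sign (76 probes). Another 11 were chosen after their values were seen. Of these 87, 2 are counted but not reported here.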

Additional observations from a re-analysis of the deposited data

Results flagged for a closer look

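Of 84 named solute carrier probes measured on all 4 arrays, 4 had an array whose log2 ratio of CLA over control lay far from the other 3, and chance flags about 1 in 20 such groups. Slc20a1, a phosphate transporter, stood at 0.057 on array 4, against 0.22 to 0.26 on the others. Slc25a10, the dicarboxylate carrier, stood at 0.29 on array 3, against 0.11 to 0.14. Slc5a1, a sodium-glucose cotransporter, stood at 0.15 on array 4, against -0.04 to -0.0086. Slc7a11, the cystine-glutamate exchanger, stood at 0.34 on array 2, against -0.05 to -0.02.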

How the results depend on the processing

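The 24 solute carriers higher with CLA at an unadjusted limma p under 0.05 became 13 with the scanner's processed signals and with the series matrix, 6 with median centring, 14 with equal spread between arrays, 3 with no dye term, 14 with the dye effect equal in size, and 7 with the dye effect equal and array 2 left out, a setting chosen after seeing the data. Over all probes the share higher also fell, from 8.76% to 6.72% with the processed signals and with the series matrix. It fell to 8.25% with median centring, 4.13% with equal spread, 0.643% with no dye term and 4.69% with the dye effect equal. With array 2 also left out it was 1.92%. Among solute carriers the share went from 17.6% to 9.56%, 4.41%, 10.3%, 2.21%, 10.3% and 5.15% in the same order. Of these settings, only median centring put it below the share of all probes. The 8 lower (5.88%, against 7.17% of all probes) became 5 with equal spread, where 3.88% of all probes were lower. They became 1 with no dye term, where 0.806% of all probes were lower. Leaving out each array in turn gave 14 to 20 higher (14 without array 2 and 15 without array 4) and 4 to 12 lower (4 without array 2). Over all probes, 12.3% were higher without array 1, 4.83% without array 2, 7.69% without array 3 and 5.9% without array 4. Among solute carriers the shares higher were 15%, 10.3%, 12.5% and 11% in that order. On the lower side were 12 of 133, 4 of 136, 6 of 136 and 7 of 136 solute carriers. The shares of all probes lower were 9.98%, 3.71%, 4.91% and 4.85%, again for arrays 1 to 4. The count at an adjusted p under 0.05 was 0 of 136 in the main setting, against 14 of 20214 probes. Among the settings that used all 4 arrays it was above 0 only with median centring, at 1 (Slc19a2), against 149 of 20214 probes. The median diet effect of 0.019 (log2) became 0.000844 with equal spread and lay between 0.000763 and 0.018 with each array left out. It was -0.00263 with the dye effect equal and array 2 left out, a setting chosen after seeing the data. Slc25a10 (-0.00054) and Slc38a4 (-0.0038) changed sign with median centring. Slc12a3 did so with equal spread (-0.13), with the dye effect equal (-0.21) and with array 2 also left out (-0.23), and the family 25 probe with the dye effect equal (-0.12) and with array 2 also left out (-0.18). The cause was not tested. Of 87 named probes, 62 kept their direction and side of the threshold with the dye effect equal, 36 with median centring and 58 with no dye term. Each slide held 1 array, so a slide or scan block could not be run. CLA and control pools are paired within each array through the log2 ratio. Pools could not be matched between arrays because the arrays carry no shared replicate numbers. Probes not well above background on any array in 1 diet carry a bound or no fold. Other dim probes that passed the filter kept their fitted effect.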
